A study of Mus musculus with 86 samples.

Results

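Poly(A) RNA was counted in cells labelled as purified round spermatids from 4-month-old mice that were either homozygous for a Btbd18 knockout or heterozygous for it. The 6 libraries, 3 per genotype, are 6 of the 86 samples of the series and were taken from the labels, with no selection by expression. Both groups had the same hybrid background, C57BL/6 (B6) X 129/SvJ. Heterozygous animals, which carry 1 intact copy of Btbd18, served as controls. How the cells were purified is not given in the sources used here. Whether the libraries of a group are from different animals is not stated either, and the p-values measure only how far these libraries vary. Whole testes (20 libraries, of postnatal days 10, 14, 18 and 28, written P10 to P28) and purified spermatocytes (6 libraries) of the same genotypes are used below as references.

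Round spermatids are the haploid cells that follow meiosis. They build the acrosome, switch on a large set of genes of their own, and then elongate, when transition proteins and protamines replace the histones. Spermatogonia, the mitotic germ cells at the base of the tubule, express none of these late genes. Btbd18 encodes a nuclear BTB-domain protein known in mouse testis as a regulator of transcription at a subset of pachytene piRNA loci, the long precursor genes from which the small RNAs of meiotic and postmeiotic germ cells are cut.

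Libraries held 0.194 to 0.543 M counts (M, mega) over 24276 features, against 5.82 to 12.3 M in whole testes. The 3 heterozygous libraries were alike (Pearson r of 0.91 for each pair over log2 of CPM plus 1, where CPM is a feature's counts per M counts of the library). The knockout libraries differed more, with r = 0.78 between replicates 1 and 3 and 0.52 to 0.57 for the pairs with replicate 2. Knockout replicate 2 had 193711 counts on 4246 features, where the other 5 libraries had counts on 11218 to 13601, and it was at 0 for 3460 of the 6703 features tested. The share of counts on Rn45s, the ribosomal RNA precursor, was 0.415 to 0.447% in heterozygous libraries and 0.587, 3.95 and 2.77% in knockout replicates 1 to 3. Results are therefore given with and without knockout replicate 2 where they differ. Btbd18 itself had 2, 0 and 0 counts in heterozygous and 3, 0 and 0 in knockout libraries, so it cannot check the genotype labels.

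The counts of these libraries do not always follow the gene they are assigned to. In 191 pairs of genes whose 3' ends overlap on opposite strands, 1 gene was at least 16-fold higher than the other in P28 heterozygous testis, with at least 10 CPM. Where the pair had at least 10 counts, the gene that is low in testis held more counts than its partner in 72 of 164 pairs (43.9%) in heterozygous and 87 of 182 (47.8%) in knockout round spermatid libraries. In P18 heterozygous testes this was so in 2 of 188 pairs (1.06%). For neighbours on the same strand it was so in 173 of 1829 pairs (9.46%) in the heterozygous round spermatid libraries. In P18 heterozygous testes that number was 53 of 2381 (2.23%). An example is Cd72, a B-cell surface receptor, with 2258, 2393 and 2468 counts in heterozygous libraries but 0.567 CPM in P28 testis, whose partner Tesk1, a testis kinase, was at 842 CPM there. Counts of a feature with a gene on its other strand therefore cannot be read as that gene's own RNA. Among the genes described below this holds for Gfra1, Uchl1, Smc1b, Stag3, Zcwpw1, Tbpl1, Gtsf1, Tsga8, Hk1, Gapdhs, Mylk, Hspa5, Ddit3, Rfxank, Mettl5, Acp2, Ctu2, BB031773, Col28a1, A630023A22Rik, 4931406H21Rik, Tmod1 and 1700071M16Rik. Genes whose own strand, or that of an overlapping gene, is not in the tables used could not be checked. These include Ncl, Syce1, Tcp11, Hspa2, Gm13483, Rad9a, Utp23, Ptger1, Tex15, Dmrt1, Star, Tagln and Psd3. The strand setting of the counting is not given in the sources used here. Features with an opposite-strand gene took 36.2 to 42.4% of the counts, against 22.4 to 25% in whole testes. Results are also given for the 10556 features with no overlapping gene, which took 23.6 to 27.9%, against 39.8 to 42.2% in whole testes. The share of this class thus differs from that in testes too.

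**Figure D1:**
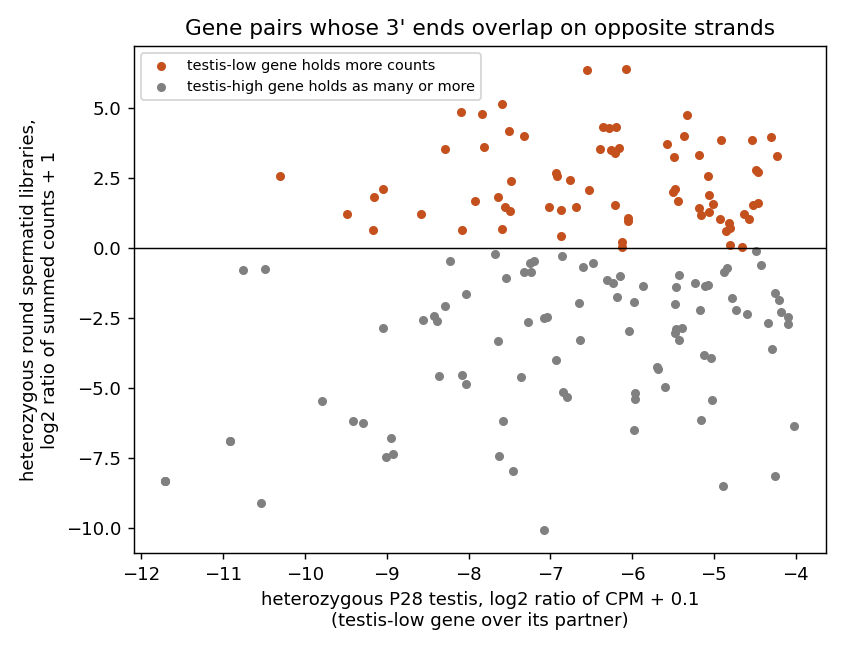
Each point is 1 of the 164 gene pairs with at least 10 counts whose 3' ends overlap on opposite strands, with the log2 ratio of the testis-low gene over its partner in P28 heterozygous testis (x axis) and in the summed heterozygous round spermatid libraries (y axis). All pairs lie below 0 on the x axis by choice, and the 72 coloured points above the line are pairs in which the testis-low gene holds more counts.

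The label round spermatids was borne out by the marker genes in heterozygous libraries only. Elongating spermatid genes summed to 13590, 10082 and 8719 CPM there, and to 560, 268 and 1594 CPM in the knockout libraries. Round spermatid genes summed to 5390, 4479 and 4181 CPM against 1348, 950 and 1648 CPM. The opposite order held for spermatogonial markers, at 830, 1100 and 643 CPM in heterozygous and 3437, 3505 and 2057 CPM in knockout libraries. None of these 3 sums overlapped between genotypes. Since spermatid markers are low and spermatogonial markers high in the knockout libraries, these are called below only by their label, and no other cell type name is given to them. Fewer cells of a type and less RNA per cell cannot be told apart in such bulk libraries.

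**Figure D2:**
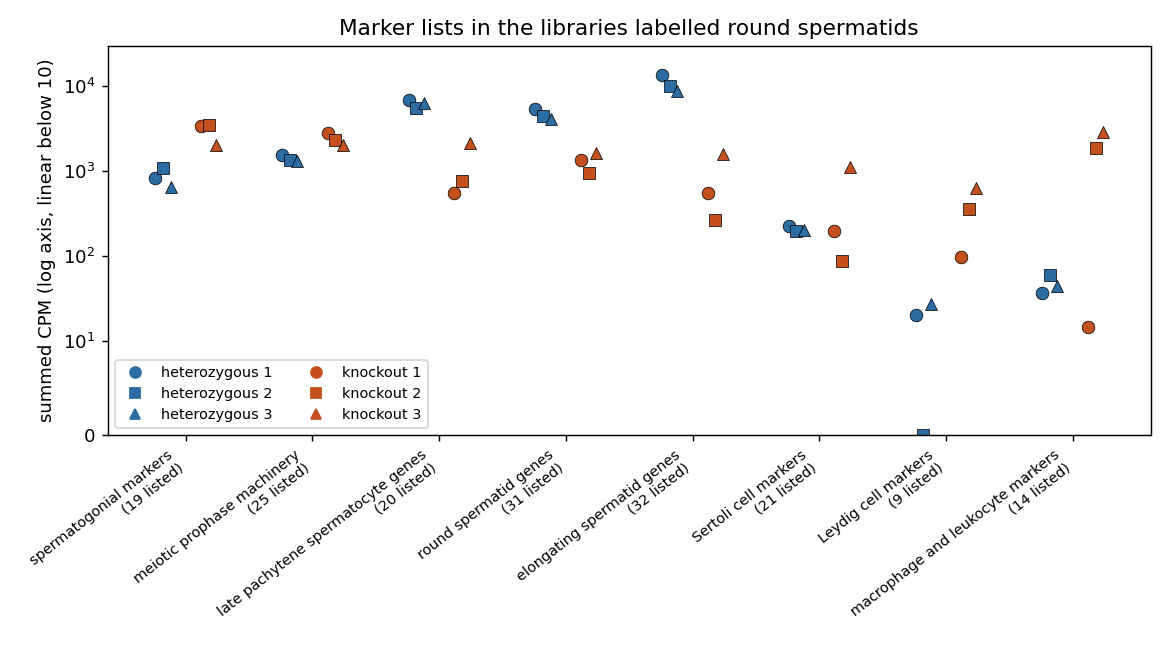
Summed CPM of 8 marker lists (x axis) in the 6 libraries (y axis, log scale, linear below 10), with each library a point, heterozygous in blue and knockout in orange. Elongating spermatid genes run from 8719 to 13590 CPM in heterozygous and from 268 to 1594 CPM in knockout libraries, and spermatogonial markers lie the other way round.

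The first wave of spermatogenesis gives another measure of what the libraries hold, since whole testes gain spermatocytes from P10 to P18 and spermatids by P28. Over 5691 features with no overlapping gene, the rank correlation of heterozygous libraries with heterozygous testis increased with testis age. For heterozygous replicate 1 it was 0.06 at P10, 0.16 at P14, 0.35 at P18 and 0.65 at P28. Heterozygous replicates 2 and 3 gave 0.63 and 0.64 at P28. Knockout replicate 1 was ordered the other way, with 0.69 at P10, 0.70 at P14, 0.65 at P18 and 0.46 at P28. For knockout replicate 2 the values were 0.39, 0.37, 0.33 and 0.24, and for replicate 3 0.59, 0.62, 0.63 and 0.51. Each knockout library was thus more like P10, P14 or P18 testis than like P28 testis, while each heterozygous library was most like P28. These correlations run across features, which are not independent, and all share the same testis means.

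**Figure D3:**
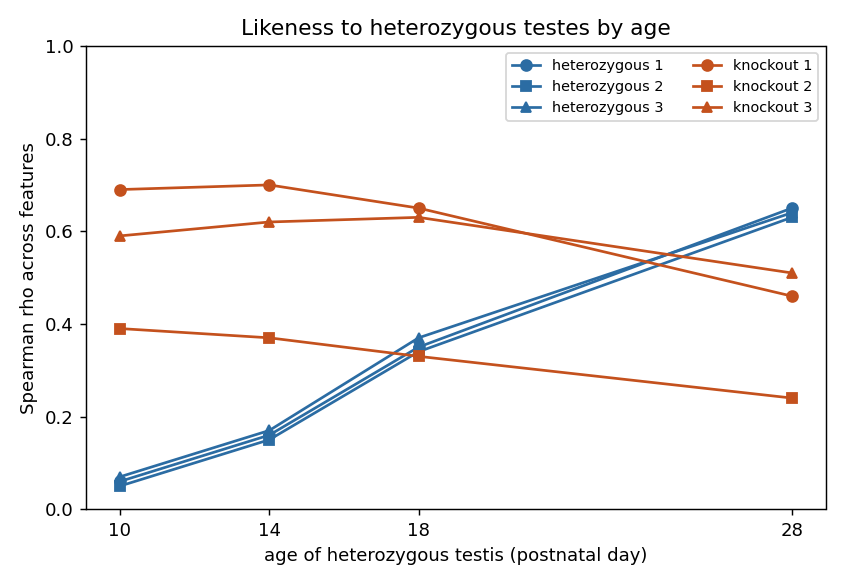
Spearman correlation across 5691 features (y axis) of each of the 6 libraries (lines) with the mean of heterozygous whole testis at P10, P14, P18 and P28 (x axis). Heterozygous lines climb from at most 0.07 at P10 to at least 0.63 at P28, and the 3 knockout lines are lowest at P28.

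Of the 6703 features that passed the low-count filter, 2553 (38.1%) changed at an adjusted p below 0.05 in edgeR's quasi-likelihood test. Of these, 1317 (19.6% of the features tested) were higher in knockout and 1236 (18.4%) lower. Without knockout replicate 2, 8595 features were tested, and 2673 (31.1%) were higher and 2581 (30.0%) lower. Of the features called with all libraries, 1300 of 1317 and 1236 of 1236 were called the same way without that library. Levels also separated the genotypes without a test: among 17671 features with a count, every knockout library was above every heterozygous library for 2283 (12.9%), and the reverse held for 3588 (20.3%). With any 1 heterozygous library left out and knockout replicate 2 kept, edgeR called 0 features at the adjusted threshold, with 1224 to 1258 higher and 1360 to 1391 lower at an unadjusted p below 0.05. Every call within these 6 libraries given below, for single features and for lists, is therefore lost in those fits. With both knockout replicate 2 and 1 heterozygous library left out, 2259 to 2358 were higher and 1982 to 2025 lower. The split of calls depends on the scaling: 51.6% of calls were higher with TMM, 32.3% with RLE and 57.7% with total counts, as the median log2 fold change of all tested features moved from -0.31 to -1.24 and 0.07.

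Genes of elongating spermatids were lower in the knockout libraries throughout the list. All 32 are in the table and have a count, 30 were tested, 24 fell and 0 rose, and their median log2 fold change was -5.28 (-5.01 with genes without a knockout count set at their bound), against -0.31 for all tested features. When knockout replicate 2 was left out, 31 were tested and 31 fell. For all 32 genes every heterozygous library was above every knockout library, against 20.3% of all features with a count. Among the 19 tested members with no overlapping gene, 16 fell and 0 rose. Macrophage markers, described further on, summed to 14.4, 1853 and 2870 CPM in knockout replicates 1 to 3, where elongating spermatid genes summed to 560, 268 and 1594 CPM, and the part of those cells in these results was not tested.

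The protamine cluster on chromosome 16 shows the size of the difference. The following genes of this list were named after their values were seen. Prm2, a protamine that packs sperm DNA (chromosome 16, 10791377 to 10792105), had 461, 221 and 178 counts in heterozygous and 1, 0 and 6 in knockout libraries. Its level was 571 ± 248 CPM (SD, n = 3) against 6.52 ± 9.30 CPM, a log2 fold change of -6.44 ± 1.01 (SE, adjusted p = 0.00615). Prm1, the other protamine (chromosome 16, 10796332 to 10796823), had 289, 167 and 155 counts against 9, 1 and 0 (-5.52 ± 1.03, adjusted p = 0.00821). No knockout library reached the lowest heterozygous library for either gene. Prm3, a neighbour in the cluster, had 96, 34 and 34 counts against 0, 0 and 0, which is at least 35.7-fold lower for a floor of 3 counts over the group. Tnp2, a transition protein that precedes the protamines, had 298, 166 and 130 counts against 4, 0 and 6 (-5.45 ± 0.90, adjusted p = 0.00671). Tnp1, the other transition protein, had 223, 119 and 76 counts against 0, 0 and 5 (-5.85 ± 1.18, adjusted p = 0.00872). All 5 genes have no overlapping gene in the annotation. Prm1, Prm2, Prm3 and Tnp2 lie side by side, and each was near or at 0 in every knockout library.

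The most abundant members of the list fell less or did not pass. Odf2, a protein of the outer dense fibres of the tail, had 1211, 845 and 811 counts in heterozygous and 47, 17 and 169 in knockout libraries (-3.23 ± 0.79, adjusted p = 0.0154). Fabp9, a fatty acid binding protein of spermatids, had 439, 242 and 300 counts against 10, 0 and 47 (-3.71 ± 1.17, adjusted p = 0.0392). In whole testis these genes were lost only in part or hardly at all: at P28 Odf2 stood at 2001 CPM in heterozygous and 778 in knockout testis, and Fabp9 at 381 and 317. Tcp11, a testis gene of sperm function, had 540, 351 and 337 counts against 7, 0 and 86, a log2 difference of -3.33 ± 1.34 that did not pass with all libraries (adjusted p = 0.0830) and passed without knockout replicate 2 (-3.09, adjusted p = 0.00562). Meig1, needed for assembly of the manchette, had 455, 275 and 357 counts against 10, 0 and 64 (-3.49 ± 1.23, adjusted p = 0.0568, and -3.25, adjusted p = 0.00184, without that library). In each of these 4 genes knockout replicate 3 held the most counts of the knockout libraries.

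Round spermatid genes showed the same direction with exceptions. Of 32 listed, 31 are in the table and have a count, 29 were tested, 17 fell and 2 rose, with a median log2 fold change of -4.03. When knockout replicate 2 was left out, 31 were tested, 27 fell and 2 rose. In 26 of the 31 every heterozygous library was above every knockout library, and in 2 the reverse, against 20.3% and 12.9% of all features with a count. Of the 15 tested members with no overlapping gene, 11 fell and 2 rose.

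Acrosome and sperm-membrane genes were among those that fell. Acrv1, a protein of the acrosomal matrix, had 139, 76 and 63 counts in heterozygous and 1, 0 and 0 in knockout libraries (-7.29 ± 1.0, adjusted p = 0.00567), and was named after its values were seen, as were Catsper1, Lyzl6 and Tex101. Catsper1, a pore subunit of the sperm calcium channel, had 44, 41 and 36 counts against 0, 0 and 0, at least 26.3-fold lower. Lyzl6, a lysozyme-like sperm protein, had 67, 49 and 45 against 0, 0 and 0, at least 35.0-fold lower. These 3 genes were at or next to 0 in every knockout library. Tssk1, a kinase of spermatids (chromosome 16, 17894203 to 17895653), had 424, 293 and 322 counts against 41, 48 and 30 (-2.64 ± 0.47, adjusted p = 0.00762). Unlike Acrv1, Catsper1 and Lyzl6, it was counted in all 3 knockout libraries. Zpbp2, a zona pellucida binding protein of the acrosome, had 169, 115 and 139 counts against 16, 0 and 17 (-3.33 ± 0.98, adjusted p = 0.0313). Tbpl1, a TBP-like factor needed for spermatid development, had 99, 124 and 137 counts against 36, 0 and 53 and did not pass (-1.72 ± 1.10, adjusted p = 0.256, and -1.46, adjusted p = 0.0135, without knockout replicate 2).

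The 2 members that rose are not confined to spermatids. Taf7l, an X-linked TFIID subunit that is also present in spermatogonia and spermatocytes, had 5, 8 and 6 counts in heterozygous and 244, 18 and 183 in knockout libraries (4.80 ± 0.93, adjusted p = 0.00846). Tex101, a germ cell surface protein, had 1, 4 and 0 counts against 25, 45 and 31 (4.68 ± 1.15, adjusted p = 0.0158). For both genes every knockout library was above every heterozygous library.

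Many genes of this stage carry a cAMP response element near their start, the site bound by CREM, a transcription factor required for spermatid gene expression. Crem itself had 98, 57 and 69 counts in heterozygous and 7, 29 and 9 in knockout libraries and did not pass with all libraries (-1.72 ± 0.77, adjusted p = 0.114, and -3.19, adjusted p = 0.000464, without knockout replicate 2). Promoters of 4 genes of the lists are shown to place the element beside the counts, as the 100 bases before the start in RefSeq (GRCm38.p6), 5′ to 3′ on the gene's strand, with 1 match in capitals.
Prm1: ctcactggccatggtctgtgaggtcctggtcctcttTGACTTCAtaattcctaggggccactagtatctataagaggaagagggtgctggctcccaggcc
Prm3: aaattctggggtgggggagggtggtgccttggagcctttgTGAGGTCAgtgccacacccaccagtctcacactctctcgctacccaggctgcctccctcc
Tssk1: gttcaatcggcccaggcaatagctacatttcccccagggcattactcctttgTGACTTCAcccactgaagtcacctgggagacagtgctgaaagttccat
Tssk2: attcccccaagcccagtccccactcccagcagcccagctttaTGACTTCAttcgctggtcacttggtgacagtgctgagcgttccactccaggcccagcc
These windows are chr16:10796824-10796923 (Prm1, minus strand), chr16:10790915-10791014 (Prm3, minus strand), chr16:17894103-17894202 (Tssk1, plus strand) and chr16:17898537-17898636 (Tssk2, plus strand). The match begins 64 bases before the start in Prm1, 60 in Prm3, 48 in Tssk1 and 58 in Tssk2. Tssk1 holds the same octamer once more on the other strand, 35 bases before the start and left in lower case. Tssk2, a kinase next to Tssk1, had 82, 54 and 50 counts in heterozygous and 20, 15 and 15 in knockout libraries and did not pass (-1.44 ± 0.55, adjusted p = 0.0714, and -1.81, adjusted p = 0.00505, without knockout replicate 2).

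The octamers TGACGTCA, TGACTTCA and TGAGGTCA were searched on both strands of RefSeq windows of 250 bases before to 50 after the start, and these 3 were kept after other motifs had been looked at. At least 1 of them was found in 1463 of 27025 promoters (5.41%) and in 309 of the 5000 tested features with a promoter (6.18%). It was found in 10 of 28 round spermatid genes (35.7%) and 5 of 26 elongating spermatid genes (19.2%), in 0 of 14 spermatogonial markers, and in 36 of 230 genes (15.7%) that fell in round spermatids and first appear in testis at P28. The octamers differed: in those 230 genes TGAGGTCA was found in 22 (9.57%, against 2.11% of all promoters and 1.84% of tested features) and TGACTTCA in 6 (2.61%, against 1.51% and 1.02%). The palindrome TGACGTCA was found in 8 (3.48%, against 1.88% and 3.44%), and in 1 of the 28 round and 0 of the 26 elongating spermatid genes. All genes that fell held an octamer in 73 of 876 promoters (8.33%), and genes that rose in 53 of 987 (5.37%). The share among genes with onset at P28 whatever their change was not counted, so the 15.7% cannot be assigned to the fall. A match describes the letters of the window and is not a site of binding.

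Late pachytene spermatocyte genes, which round spermatids inherit from meiosis, were lower with larger errors. Of 20, 18 have a count and 14 were tested. Of these 3 fell (Clgn, Adam3 and Pgk2), near the 18.4% of all tested features, and 0 rose, against 19.6%. Their median log2 fold change was -2.69, against -0.31 for all tested features, with 12 of the 14 below 0. Without knockout replicate 2, 15 were tested, 9 fell and 0 rose, against 30.0% and 31.1% of all features tested there. In 9 of the 18 every heterozygous library was above every knockout library, against 20.3% of all features with a count. Ldhc, the germ cell lactate dehydrogenase, had 1117, 750 and 847 counts in heterozygous and 20, 0 and 175 in knockout libraries. Its log2 difference was -3.42 ± 1.4 (adjusted p = 0.0886) with all libraries and -3.17 (adjusted p = 0.00414) without knockout replicate 2. Clgn, a chaperone of sperm membrane proteins, had 511, 385 and 512 counts against 23, 25 and 106 (-2.77 ± 0.68, adjusted p = 0.0156). Ybx2, an RNA-binding protein that stores messenger RNA, had 632, 382 and 497 counts against 32, 0 and 104 (-3.11 ± 1.23, adjusted p = 0.0791, and 0.00129 without knockout replicate 2). Hspa2, a chaperone of meiotic cells, had 529, 313 and 389 counts against 20, 0 and 118 (-2.77 ± 1.28, adjusted p = 0.122, and 0.00618 without that library). In all 4 genes every heterozygous library was above every knockout library, and knockout replicate 3 had the most knockout counts.

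The meiotic prophase machinery summed to 1566, 1370 and 1331 CPM in heterozygous and 2839, 2333 and 2029 CPM in knockout libraries. The sums did not overlap, but its tested members went both ways, 8 above 0 and 3 below. In 4 members every knockout library was above every heterozygous library and in 0 the reverse, against 12.9% and 20.3% of all features with a count. Of its 25 members in the table, 11 were tested, 2 rose and 0 fell, against 19.6% and 18.4% of all tested features. The median log2 fold change of the list was 0.18 and turned to -0.80 with RLE scaling. With knockout replicate 2 set aside, 14 were tested, 3 rose and 1 fell, against 31.1% and 30.0% of all features tested there. Tex15, needed for repair of meiotic breaks, had 47, 57 and 52 counts in heterozygous and 258, 124 and 106 in knockout libraries (2.01 ± 0.49, adjusted p = 0.0160). Zcwpw1, a histone reader of meiotic break sites, also rose (5.18 ± 1.07, adjusted p = 0.00896), and has a gene on its other strand. Smc1b, a meiotic cohesin, had 126, 89 and 103 counts against 152, 29 and 84 (0.08 ± 0.55, adjusted p = 0.925). Stag3, another meiotic cohesin, had 107, 84 and 117 against 89, 16 and 131 (-0.04 ± 0.66, adjusted p = 0.968). Counts assigned to these 2 genes, which both have a gene on the other strand, overlapped between genotypes. Syce1, of the synaptonemal complex, had 188, 96 and 123 counts against 41, 56 and 31, a difference that passed only without knockout replicate 2 (-1.15 ± 0.52, adjusted p = 0.115, against -1.90, adjusted p = 0.00245). Tex15 and Syce1 thus moved in opposite directions without that library.

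Spermatogonial genes rose with 1 exception among the members tested. Of 19 in the table, 12 were tested, 11 rose and 1 fell, with a median log2 fold change of 8.16, or 6.29 with the 6 members without a heterozygous count at their bound. The count was the same without knockout replicate 2, and all 5 tested members with no overlapping gene rose. In 13 of the 19 every knockout library was above every heterozygous library, against 12.9% of all features with a count. The knockout libraries had counts on 19, 14 and 18 of the 19 markers, and the heterozygous libraries on 7, 6 and 10.

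Dazl, an RNA-binding protein of premeiotic and early meiotic germ cells (chromosome 17, 50279393 to 50293620, no overlapping gene), had 3, 1 and 1 counts in heterozygous and 376, 142 and 180 in knockout libraries. Its level was 3.28 ± 1.94 CPM against 717 ± 195 CPM (SD, n = 3), a log2 fold change of 7.40 ± 0.69 (SE, adjusted p = 0.00454). Stra8, which retinoic acid switches on at the entry into meiosis, had 0 counts in each heterozygous library and 113, 52 and 33 in knockout libraries. That is at least 101-fold higher (adjusted p = 0.00647). Zbtb16, a transcription factor of undifferentiated spermatogonia, had 0 against 79, 44 and 37 counts, at least 81.7-fold higher (adjusted p = 0.00632). Stra8, Zbtb16 and Kit were named after their values were seen. Kit, the receptor of differentiating spermatogonia, had 3, 6 and 0 counts against 86, 8 and 41 (4.11 ± 1.24, adjusted p = 0.0333). Uchl1, a ubiquitin hydrolase of spermatogonia, had 0, 0 and 1 counts against 172, 61 and 106 (8.25 ± 0.96, adjusted p = 0.00454), and Dmrt1, a transcription factor of spermatogonia and Sertoli cells, had 0, 0 and 1 against 166, 31 and 109 (8.07 ± 1.09, adjusted p = 0.00567).

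The member that fell is Gfra1, the GDNF co-receptor of spermatogonial stem cells, with 432, 481 and 292 counts in heterozygous and 29, 62 and 37 in knockout libraries (-2.73 ± 0.57, adjusted p = 0.00912). Gfra1 made up most of the heterozygous sum of this list. It overlaps Gm10007 on the other strand, and it stood at 10.0 CPM in P28 and 44.2 CPM in P10 testis.

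Of the 12 features with the smallest p among those that rose, 11 are given here, with log2 fold changes of 5.87 to 9.42, each at an adjusted p of 0.00454. Those with no overlapping gene are Mdn1, Dazl and Tmem206. Mdn1, an ATPase of ribosome assembly, had 17, 11 and 16 counts in heterozygous and 914, 658 and 488 in knockout libraries (5.97 ± 0.52). Tmem206, a chloride channel subunit, had 0, 1 and 0 counts against 242, 172 and 326 (9.42 ± 0.91). Ncl, nucleolin, had 5, 4 and 2 counts against 568, 205 and 287 (6.91 ± 0.63). Mdn1 and Ncl both act in making ribosomes. Rad9a, a DNA damage clamp subunit whose strand is not in the tables used, had 2, 4 and 2 counts against 1067, 393 and 522 (8.22 ± 0.68). In whole testis Rad9a differed little, with 7.77 CPM in heterozygous and 8.73 in knockout at P28. High knockout counts were also found for Mettl5, an RNA methyltransferase, with 12, 5 and 14 counts against 1007, 415 and 495 (6.33 ± 0.62), and for Gm15441, with 5, 5 and 16 against 1116, 824 and 1561 (7.45 ± 0.74). Mettl5 lies opposite Ssb, which itself stood at 98.8 CPM in P28 heterozygous testis where Mettl5 was at 8.33 CPM, and Gm15441 was at 3.75 CPM there. Ptger1, Rfxank, Acp2 and Ctu2 had log2 fold changes of 6.61, 5.87, 6.76 and 6.23. Of these Rfxank, Acp2 and Ctu2 have a gene on the other strand.

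Markers of other testis cells were counted beside these results. Macrophage and leukocyte markers summed to 36.8, 60.3 and 43.9 CPM in heterozygous libraries and to 14.4, 1853 and 2870 CPM in knockout replicates 1 to 3. Lyz2, a macrophage lysozyme, had 0, 1 and 3 counts against 0, 111 and 346, Csf1r, the macrophage growth factor receptor, 1, 0 and 0 against 0, 44 and 149, and C1qc, of the complement system, 2, 2 and 0 against 0, 24 and 128. The markers were thus high in knockout replicates 2 and 3 and absent or near 0 in replicate 1. None of the 14 passed the low-count filter, and C1qb, with 7, 10 and 10 counts against 0, 70 and 88, was tested only without knockout replicate 2 (2.29, adjusted p = 0.10). Ptprc, the pan-leukocyte marker, had 0 to 3 counts in every library. Spermatogonial markers summed to 3437, 3505 and 2057 CPM in the same 3 libraries, and the part of macrophages in the genotype differences was not tested.

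Sertoli cell markers summed to 228, 199 and 205 CPM in heterozygous and 197, 87.8 and 1110 CPM in knockout libraries, so knockout replicate 3 stood apart. Dhh alone gave 202, 170 and 182 CPM of the heterozygous and 12, 0 and 112 CPM of the knockout sums. The other members thus made up little of each heterozygous sum and most of each knockout sum. In knockout replicate 2 the sum was that of Ctsl alone. Clu, a secreted chaperone of Sertoli cells, had 0, 2 and 2 counts against 6, 0 and 117, and Trf, transferrin, 7, 1 and 1 against 9, 0 and 75. Ctsl, a protease of Sertoli cells and macrophages, had 0 counts in each heterozygous library and 35, 17 and 74 in knockout libraries, and rose (at least 64.4-fold higher, adjusted p = 0.00833). The defining markers Sox9, with 4, 1 and 0 counts against 0, 0 and 0, and Fshr, at 0 throughout, were near or at 0. Dhh, a Sertoli ligand, had 110, 76 and 87 counts against 5, 0 and 39 (-2.24 ± 1.19, adjusted p = 0.173, and 0.0204 without knockout replicate 2).

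Leydig cell markers summed to 20.2, 0 and 27.2 CPM in heterozygous and 98.6, 361 and 641 CPM in knockout libraries. Star, the cholesterol carrier of steroid synthesis, had 7, 0 and 3 counts against 34, 53 and 24 and rose (4.00 ± 1.10, adjusted p = 0.0241). Insl3, the Leydig cell peptide hormone, had 0, 0 and 0 against 3, 17 and 62. Hsd3b1 and Cyp17a1, enzymes of steroid synthesis, had 0, 0 and 45 and 2, 0 and 46 counts in the knockout libraries and at most 4 in a heterozygous one. The sum of Leydig markers was thus highest in replicate 3, but Star was lowest there, at 81.7, 274 and 68.7 CPM in knockout replicates 1 to 3. Spermatocyte libraries had 224 to 326 Star counts in heterozygous and 239 to 268 in knockout, where Insl3 and Hsd3b1 were at 0. Star counts therefore do not follow those of the other Leydig markers. Lhcgr, the LH receptor, was at 0 in all 6 libraries. Peritubular markers summed to 136, 165 and 119 CPM against 233, 176 and 504 CPM. Tagln, a smooth muscle protein, had 9, 18 and 18 counts against 80, 22 and 51 and rose (2.06 ± 0.69, adjusted p = 0.0476), while Mylk, myosin light chain kinase, had 25, 28 and 23 against 14, 12 and 34 (0.06 ± 0.70, adjusted p = 0.953). Actg2, a smooth muscle actin, had 31, 22 and 16 against 1, 0 and 7 (-2.66 ± 1.13, adjusted p = 0.0987, and 0.0254 without knockout replicate 2), and Myh11, smooth muscle myosin, was counted in knockout replicate 3 alone (39).

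Of the 12 features with the smallest p among those that fell, each at an adjusted p of 0.00454, 8 had knockout counts and log2 fold changes of -4.00 to -9.50, and 4 had none and are given as bounds. Those with no overlapping gene are Spz1, Cnga3 and Spata21. Spz1, a spermatogenic helix-loop-helix zipper protein (chromosome 13, 92574631 to 92576232), had 288, 213 and 204 counts in heterozygous and 1, 0 and 1 in knockout libraries (-7.84 ± 0.74). Spata21, a calcium-binding testis protein, had 395, 215 and 258 counts against 0, 0 and 0, at least 189-fold lower. Both are strong testis genes, at 718 and 697 CPM in P28 heterozygous and 1.39 and 2.61 CPM in P28 knockout testis. Cnga3, a cyclic nucleotide gated channel subunit, had 197, 180 and 213 counts against 1, 0 and 0 (-8.42 ± 0.86). Cnga3 was at only 2.72 CPM in P28 heterozygous testis, though no gene overlaps it. Cylc2, a basic protein of the sperm head cytoskeleton, had 150, 149 and 129 counts against 1, 1 and 0 (-7.11 ± 0.81). Psd3, an exchange factor for ARF6 GTPase, was the member of this set with the most knockout counts, 26, 13 and 21 against 382, 412 and 460 (-4.00 ± 0.46).

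The other 7 are, like Cnga3, low in P28 heterozygous testis, at 0 to 14.0 CPM. BB031773 had 401, 509 and 331 counts against 1, 0 and 0 (-9.50 ± 0.88) and was at 0 in P28 testis. It lies opposite Tctex1d1, a dynein light chain gene with 27.2 CPM there. A630023A22Rik was at least 234-fold lower, Utp23 at least 205-fold and 4931406H21Rik at least 179-fold lower, each with 0 counts in all knockout libraries. In P28 testis Utp23 stood at 14 CPM in heterozygous and 18 CPM in knockout. Gm13483, Col28a1 and Mir3968 had log2 fold changes of -7.64, -7.30 and -8.11.

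When a gene first appears in the normal testis was set beside its change in the cells, using heterozygous whole testes alone. A gene was placed at P14, P18 or P28 if its largest step between ages was at least 8-fold there and its level reached 5 CPM. Of 772 features with onset at P28, when spermatids appear, 427 were tested, 311 fell and 6 rose, with a median log2 fold change of -4.87 (-4.28 with bounds). Of the 352 with onset at P14, 218 were tested, 112 fell and 5 rose (median -3.38), and of the 374 with onset at P18, 224 were tested, 121 fell and 5 rose (median -3.52). Of 12277 features without an onset, 5385 were tested, 1213 rose and 508 fell, with a median of 0.22 that was -0.71 with RLE scaling, where the median of all tested features was -1.24. With knockout replicate 2 left out, 203 fell and 5 rose with onset at P14, 204 and 6 at P18 and 469 and 8 at P28, while without an onset 2487 rose and 1403 fell, with a median of 0.53. Among members with a count, every heterozygous library was above every knockout library for 615 of 770 features with onset at P28, against 20.3% of all features. For features with no overlapping gene, 144 of 183 tested with onset at P28 fell and 0 rose.

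**Figure D4:**
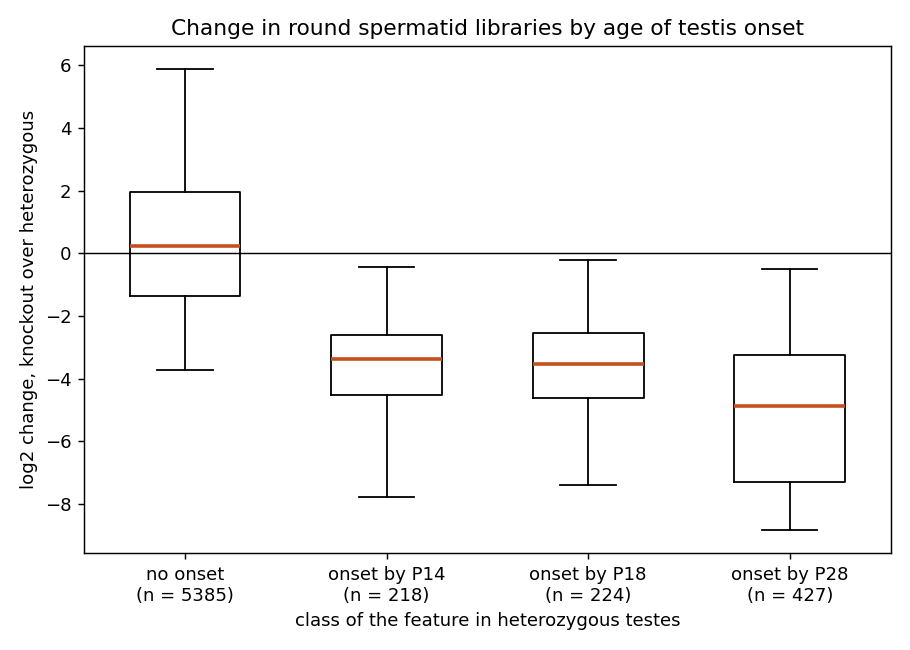
Log2 fold change of knockout over heterozygous (y axis) for tested features grouped by the age of onset in whole heterozygous testis (x axis), with boxes for the middle 50% of features and whiskers from the 5th to the 95th percentile. Medians, shown as coloured lines, are 0.22 without onset, -3.38 for P14, -3.52 for P18 and -4.87 for P28.

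Genes that whole testis loses in the knockout at P28 were mostly lower in the cells. These 625 features had at least 10 CPM in heterozygous and a level at least 16-fold lower in knockout P28 testis, a choice that used testis libraries alone. Of the 379 tested, 287 fell and 4 rose, with a median log2 fold change of -5.16 (-4.38 with bounds, 111 of them having no knockout count). Without knockout replicate 2, 465 were tested, 424 fell and 6 rose. Every heterozygous library was above every knockout library for 528 of 624 with a count, and the reverse held for 4, against 20.3% and 12.9% of all features. The 4 that rose, named after their values were seen, are LOC102633315, Tmod1, Gm16982 and 1700071M16Rik.

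The table lists 214 piRNA loci, of which 100 are named by chromosome band and counted here as intergenic, and 114 are named after a gene. Positions and strands of the loci are not in the tables used, so an overlap with other genes could not be checked. The intergenic loci summed to 18723, 21884 and 20439 CPM in heterozygous and 5615, 6525 and 5064 CPM in knockout libraries. Of 96 with a count, 45 were tested, 30 fell and 7 rose, with a median log2 fold change of -4.43. Every heterozygous library was above every knockout library in 50 of the 96, and the reverse held in 8, against 20.3% and 12.9% of all features with a count. Genic loci, by contrast, summed to 7661, 9682 and 9830 CPM against 10326, 9746 and 9030 CPM. These sums rest in part on 1 locus each. The locus pi-Luzp1 gave 2092, 1870 and 2137 CPM against 5250, 3784 and 3622 CPM of the genic sums. The locus 13-qB1-1517 gave 8909, 10421 and 9199 CPM against 69.7, 0 and 352 CPM of the intergenic sums. Of 107 genic loci with a count, 51 were tested, 14 rose and 8 fell, where 19.6% of all tested features rose and 18.4% fell. The median of the genic loci was 0.00, and it was -0.95 with RLE scaling and 0.27 with total counts. When knockout replicate 2 was left out, 59 genic loci were tested, 21 rose and 14 fell, with a median of 0.77, and 57 intergenic loci were tested, 8 rose and 40 fell. The difference between the kinds of locus was not tested.

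The intergenic locus 13-qB1-1517 was the most abundant of its kind. It had 4841, 4670 and 4403 counts in heterozygous and 29, 0 and 123 in knockout libraries (-6.17 ± 1.47, adjusted p = 0.0141), while whole testis at P28 had 267 CPM in heterozygous and 266 CPM in knockout. The locus 11-qE1-9443 had 709, 756 and 728 counts against 3, 0 and 22 (-6.07 ± 1.19, adjusted p = 0.00854) and stood at 59.1 and 2.69 CPM in P28 testis. Both loci fell in the cells, and 1 of them differs between genotypes in testis. The locus 6-qD1-2831 had 501, 475 and 568 counts against 209, 57 and 80 (-1.82 ± 0.51, adjusted p = 0.0257), and 9-qF4-150 had 117, 129 and 136 against 628, 234 and 332 and rose (1.99 ± 0.45, adjusted p = 0.0119).

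Loci that depend on Btbd18 in whole testis were defined from testis libraries alone, as those with at least 1 CPM at P18 and a knockout mean at least 4-fold lower at both P14 and P18. Of these 36 loci, 16 were tested, 12 fell and 1 rose, with a median log2 fold change of -5.55 (-4.35 with bounds). Every heterozygous library was above every knockout library in 23 of the 36, and the reverse held in 1, against 20.3% and 12.9% of all features with a count. Beside 11-qE1-9443, 7-qD1-19431 had 261, 196 and 195 counts against 5, 0 and 24 (-4.10 ± 1.09, adjusted p = 0.0217). The locus 14-qC1-1261 had 222, 191 and 236 counts against 15, 0 and 9 (-4.43 ± 0.96, adjusted p = 0.00986), and 14-qC1-1010 had 108, 103 and 205 against 3, 0 and 10 (-4.61 ± 1.02, adjusted p = 0.0109). The 4 most abundant dependent loci thus all fell. The 1 that rose, named after its values were seen, is 7-qD2-24830 with 2, 1 and 1 counts against 76, 11 and 44 (5.23 ± 0.95, adjusted p = 0.00805). Of the 29 other intergenic loci tested, 18 fell and 6 rose, and the difference between these sets of loci was not tested.

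**Figure D5:**
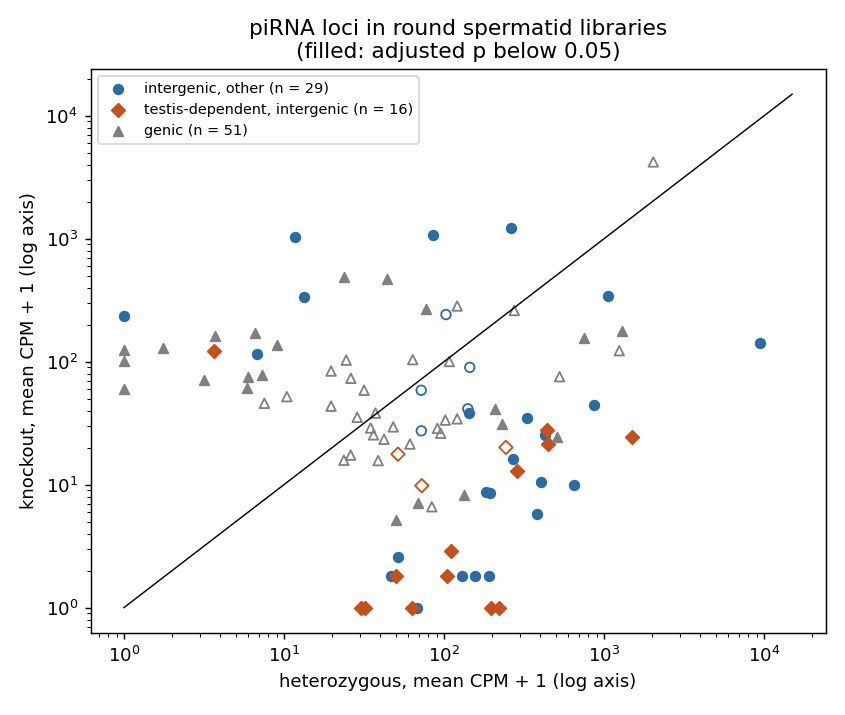
Mean CPM plus 1 of each tested piRNA locus in heterozygous (x axis) and knockout (y axis) libraries, both on log axes, with symbols by kind of locus, filled symbols for an adjusted p below 0.05 and a line for equal levels. Of the 16 dependent loci 13 are filled, 12 of them below the line, and the 51 genic loci lie on both sides.

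Among the genic loci the most abundant members went different ways. The locus pi-Luzp1 had 1137, 838 and 1023 counts in heterozygous and 2184, 733 and 1266 in knockout libraries and did not pass (0.85 ± 0.44, adjusted p = 0.169), and its difference was -0.11 with RLE scaling and 1.22 with total counts (adjusted p = 0.0251). In CPM, each knockout library was above each heterozygous one. For pi-Ip6k1 the counts were 590, 666 and 622 against 56, 48 and 53 (-3.16 ± 0.43, adjusted p = 0.00567), and for pi-Rab11fip4 343, 370 and 372 against 55, 21 and 78 (-2.46 ± 0.52, adjusted p = 0.00962). The locus pi-Wdfy3 had 403, 625 and 767 counts against 29, 0 and 104 (-3.44 ± 1.28, adjusted p = 0.0657, and 0.00155 without knockout replicate 2).

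Genes of the piRNA pathway changed in both directions. Of 25, 16 were tested, 5 rose and 4 fell, against 19.6% and 18.4% of all tested features. The median log2 fold change of the pathway genes was -0.25 (0.14 with total counts). In the 5 libraries other than knockout replicate 2, 21 were tested, 9 rose and 5 fell. Those that fell include Tdrd6, a tudor protein of the chromatoid body of spermatids, with 388, 271 and 366 counts in heterozygous and 10, 14 and 45 in knockout libraries (-3.45 ± 0.66, adjusted p = 0.00842). Ddx25, a germ cell RNA helicase, had 182, 143 and 155 counts against 20, 0 and 15 (-3.45 ± 0.99, adjusted p = 0.0279), and Mael, needed for pachytene piRNA production, had 357, 324 and 318 against 81, 23 and 112 (-1.85 ± 0.55, adjusted p = 0.0328). In all 3 no knockout library reached a heterozygous one. Gtsf1, a PIWI cofactor, fell too (-3.18 ± 1.01, adjusted p = 0.0395).

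The pathway genes that rose were Piwil2, Mov10l1, Tdrd1, Asz1 and Gpat2, named after their values were seen together with Gtsf1 and Piwil1. Piwil2, the PIWI protein also present in premeiotic germ cells, had 4, 3 and 9 counts against 192, 11 and 119 (4.58 ± 1.02, adjusted p = 0.0110). Tdrd1, its tudor partner, had 6, 3 and 8 counts against 115, 26 and 75 (3.98 ± 0.73, adjusted p = 0.00805). Mov10l1, the helicase that starts precursor processing, had 20, 14 and 5 against 108, 56 and 75 (3.02 ± 0.63, adjusted p = 0.00921). Asz1 and Gpat2, of the mitochondrial surface where piRNAs are made, rose by 5.27 and 3.58 on the log2 scale. Each of these 5 had every knockout library above every heterozygous one. Ddx4, the germ cell helicase present throughout, had 183, 149 and 216 counts against 207, 97 and 147 (0.10 ± 0.41, adjusted p = 0.866). Piwil1, the PIWI protein of pachytene cells and round spermatids, had 4, 9 and 4 counts against 11, 0 and 3 and was not tested.

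Genes of sperm glycolysis and energy supply had a median log2 fold change of -2.09, against -0.31 for all tested features. Of 17 counted members 16 were tested, 5 fell and 1 rose, against 18.4% and 19.6% of all tested features. Without knockout replicate 2, 11 of 16 fell and 2 rose, against 30.0% and 31.1% of all features tested there. Hk1, hexokinase, had 453, 282 and 289 counts in heterozygous and 28, 23 and 33 in knockout libraries (-3.15 ± 0.44, adjusted p = 0.00567), and Pgk2, the testis phosphoglycerate kinase, 239, 146 and 169 against 6, 0 and 32 (-3.47 ± 1.13, adjusted p = 0.0436). Gapdhs, the sperm glyceraldehyde phosphate dehydrogenase, had 201, 118 and 117 against 58, 34 and 11 and did not pass (-1.64 ± 0.63, adjusted p = 0.0745, and 0.00963 without knockout replicate 2). The member that rose, named after its values were seen, is Slc25a31, the germ cell ADP/ATP carrier, with 2, 2 and 7 counts against 56, 32 and 74 (4.21 ± 0.81, adjusted p = 0.00842).

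Spermatid genes of the sex chromosomes were thinly counted. Of 18 in the table, 11 have a count and 5 were tested, of which 2 fell and 0 rose, against 18.4% and 19.6% of all tested features. Tsga8, an X-linked chromatin protein of spermatids, had 108, 51 and 41 counts in heterozygous and 0, 0 and 1 in knockout libraries (-6.78 ± 1.11, adjusted p = 0.00650), and the other is Cylc2, which lies on chromosome 4. Uba1y, a Y-linked ubiquitin enzyme of spermatogonia, had 8, 2 and 7 counts against 92, 0 and 50 and was tested only without knockout replicate 2 (3.62 ± 0.58, adjusted p = 0.00057). Prdx4, an X-linked peroxiredoxin, had 27, 6 and 3 counts against 27, 11 and 20 (1.16 ± 0.89, adjusted p = 0.340).

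Of the stress response genes, 15 had a count and 9 were tested, with 3 risen and 0 fallen, against 19.6% and 18.4% of all tested features. Their median log2 fold change was 1.86. Without knockout replicate 2, 12 were tested, 7 rose and 2 fell, against 31.1% and 30.0% of all features tested there. Hmox1, heme oxygenase, had 0 counts in each heterozygous library and 19, 39 and 32 in knockout libraries, at least 46.0-fold higher (adjusted p = 0.00842). Egr1, an immediate early factor, had 0, 0 and 3 counts against 25, 54 and 84 (6.03 ± 1.27, adjusted p = 0.00921). Hmox1 and Egr1 were named after their values were seen. In CPM, both were higher in knockout replicates 2 and 3, the libraries with macrophage marker counts, than in replicate 1, and the part of those cells was not tested. Ddit3, a factor of the endoplasmic reticulum stress response with genes on its other strand, had 36, 22 and 22 counts against 127, 23 and 78 and passed narrowly (1.86 ± 0.63). The 3 most abundant members, Hsp90aa1, Hspa5 and Jun, had log2 differences of -1.14, 0.53 and 2.91 and did not pass (adjusted p = 0.0784, 0.564 and 0.0739), though Hsp90aa1 passed without knockout replicate 2 (adjusted p = 0.0226). The difference of Hspa5 was -0.38 with RLE scaling.

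The genotype effect in these cells was set against that in purified spermatocytes by the interaction of fraction and genotype over 12 libraries. In spermatocytes the testis-low gene held more counts in 103 of 168 opposite-strand pairs (61.3%) in heterozygous and 93 of 153 (60.8%) in knockout libraries. Spermatocyte counts of features with an opposite-strand gene therefore carry the same limit. Of 7900 features tested, the effect was higher in round spermatids for 739 (9.35%) and lower for 859 (10.9%). With knockout replicate 2 left out these were 1747 and 1639. Leaving out 1 heterozygous round spermatid library gave 369 to 387 higher and 603 to 665 lower, and leaving out 1 spermatocyte library gave 259 to 498 and 333 to 516. Dazl had 17, 12 and 57 counts in heterozygous and 16, 10 and 8 in knockout spermatocytes, so its rise in round spermatids exceeded the spermatocyte effect by 7.89 on the log2 scale (adjusted p = 0.000646). For Rad9a, with 55, 13 and 39 against 28, 9 and 10 spermatocyte counts, the difference was 8.64 (adjusted p = 0.000414). Fam71a, a testis gene with no overlapping gene, had 122, 128 and 69 counts against 0, 0 and 0 in round spermatids, at least 69.4-fold lower, and 43, 13 and 30 against 64, 31 and 39 in spermatocytes (adjusted p of the interaction = 0.000552). The piRNA locus 14-qA3-3095 had 98, 102 and 119 counts against 0, 0 and 0 in round spermatids, also at least 69.4-fold lower, and 97, 66 and 114 against 122, 164 and 92 in spermatocytes (adjusted p of the interaction = 0.000414). Fam71a and 14-qA3-3095 were thus at 0 in the knockout round spermatid libraries and counted in every spermatocyte library of both genotypes. In whole testis, however, 14-qA3-3095 is 1 of the dependent loci, at 223 CPM in heterozygous and 9.46 in knockout at P18. Its spermatocyte counts do not show that loss, and the reason was not tested. Features at 0 in all knockout libraries of both fractions, such as Spata21, cannot be read in this test.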

How the data were processed

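Raw read counts are the unit of the deposited tables, with a column for each library and a row for each gene or piRNA locus, and they entered every test unscaled. The submitters' processing notes name cutadapt 1.8.1, TopHat2 2.1, Cufflinks, Subread 1.4.6-p3 with its featureCounts, and the build mm10. Per the labels' protocols, purified cells were prepared with a directional NEBNext kit and testes with Nextera. The annotation and the strand setting are not given in the sources used here. Symbols of 23902 of 24276 features (98.5%) matched RefSeq GRCm38.p6, the build of mm10, which gave coordinates, strands (17854 features), overlaps and promoters.

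Genotypes were compared within the 6 libraries with the quasi-likelihood F test of edgeR 4.0.16 (R 4.3.3), using filterByExpr with the groups and TMM factors. The Benjamini-Hochberg adjustment ran over every tested feature, and 0.05 was the threshold. Changes are given as log2 of knockout over heterozygous ± SE, and levels are CPM of total counts. Where a group had 0 counts, folds are bounds with a floor of 3 counts over the group and cover counting error only. The biological coefficient of variation was 0.703, and 0.392 without knockout replicate 2. The interaction test added the 6 spermatocyte libraries.

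On simulated data for the 6 libraries (6177 genes) 0 of 100 genes changed 4-fold and 39 of 100 changed 32-fold were found, with 1 of 40 calls false. Without knockout replicate 2 (7759 genes) these were 57, 88 and 11 of 156, and for the interaction (7201 genes) 1, 42 and 2 of 45. The simulation changed only 100 genes at each fold, whereas 38.1% of tested features were called in the data. It also gave each gene the same spread in every library, though knockout replicate 2 stood apart in the data. The shares found therefore do not measure how many changes of a given size were missed here.

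Genes were named by rule: the 12 features with the smallest p in each direction, the 4 most abundant members of each of 17 gene lists and of the piRNA locus sets, and 6 features per direction for the interaction. Of the features so chosen, 1 is not reported here. The 17 lists are spermatogonial, meiotic, late pachytene, round and elongating spermatid, Sertoli, Leydig, peritubular, macrophage, endothelial, erythroid, adipose, piRNA pathway, sex-chromosome, glycolysis, p53 and stress genes. The members, lists and rules were chosen with earlier results of these data known. Alternatives were RLE scaling, total counts, no filter, DESeq2 1.42.0, limma 3.58.1 voom with sample weights, left-out libraries, added spermatocyte libraries and a replicate block.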

Additional observations from a re-analysis of the deposited data

Results flagged for a closer look

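The genotype effect differed between round spermatids and spermatocytes by edgeR's interaction test for 739 features with a higher and 859 with a lower effect in round spermatids. Among the 6 with the smallest p on the higher side, the differences in log2 fold change were 8.64 for Rad9a, 7.40 for Ncl, 6.18 for Mettl5, 6.38 for Gm15441, 7.89 for Dazl and 9.91 for Tmem206. In spermatocytes these had 13 to 55, 13 to 30, 174 to 312, 196 to 338, 12 to 57 and 7 to 16 counts per heterozygous library. On the lower side the differences were -9.57 for Alpi, -5.30 for BC030499, -7.73 for Alppl2 and -7.30 for Gpr179. For 14-qA3-3095 and Fam71a, which had 0 counts in all knockout round spermatid libraries, the fitted differences of -10.31 and -10.51 depend on the prior count and are no measured size, and the fall within round spermatids was at least 69.4-fold in each. Gpr179, an orphan receptor with no overlapping gene, had 83, 103 and 163 counts in heterozygous and 4, 0 and 4 in knockout round spermatid libraries, and 204, 127 and 104 against 459, 533 and 342 in spermatocytes. Alpi and Alppl2, alkaline phosphatase genes side by side on chromosome 1, both lie opposite Gm29371. Adjusted p-values of these 12 features were 0.000414 to 0.000759, and each kept its call and direction under every alternative run for it, including those that left out knockout replicate 2 or a heterozygous library. The part of the cell makeup of the fractions in these differences was not tested.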

How the results depend on the processing

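Of 95 named features, 7 had the other sign under at least 1 alternative (Smc1b, Stag3, Mylk, Ddx4, Mdm2, Hspa5 and pi-Luzp1), of which 2 passed the threshold in any fit and 0 with the other sign. Their side of the threshold changed most when a heterozygous library was left out (60 lost the call in each case), in the replicate block fit (23 lost it) and without knockout replicate 1 (22 lost it). Without knockout replicate 2, 14 gained the call and 0 lost it.

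Against 1317 features higher in knockout, RLE scaling called 874 and the fit without a filter 786, and against 1236 lower, DESeq2 called 2445 and the fit with the spermatocyte libraries added 2162. With 1 library left out the counts ran from 0 to 2673 higher and from 0 to 2581 lower, the 0 being each heterozygous library (edgeR, DESeq2 not run there) and the highest knockout replicate 2. Added after the data were seen, leaving out knockout replicate 2 with RLE scaling gave 2737 higher and 2546 lower, and with total counts 3170 and 2104. Leaving out that library and heterozygous replicate 1, 2 or 3 gave 2358, 2259 and 2283 higher and 2025, 1982 and 1994 lower. Features with no overlapping gene, fewer by construction, gave 432 higher and 405 lower. The cause of the other differences was not tested.

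For the difference from spermatocytes, total counts gave 1569 higher, RLE scaling 1387 lower and DESeq2 1901 lower, and leaving out 1 library gave 259 to 1747 higher and 333 to 1639 lower. Replicate numbers are shared between groups, but same-numbered libraries did not deviate together (r = -0.013, 0.033 and 0.012). Whether the numbers pair the samples is not stated, and so few libraries per group cannot settle it. A replicate block gave 236 higher and 180 lower in round spermatids, and 178 higher and 298 lower for the difference. Depth limits the test: features at 3 counts or fewer over a group cannot be told from 0.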

Other observations

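Ribosomal protein genes, counted by their prefixes without S6 kinases, summed to 1183, 1080 and 972 CPM in heterozygous and 3408, 4884 and 3668 CPM in knockout libraries. Of 77 with a count, 24 were tested, 11 rose and 1 fell, with a median log2 fold change of 2.05 (1.13 with RLE scaling, and 20 rose and 4 fell of 31 tested without knockout replicate 2), and of 9 tested with no overlapping gene 3 rose and 0 fell. Every knockout library was above every heterozygous library for 15 and the reverse held for 5, against 12.9% and 20.3% of all features with a count. Histone genes of the clusters had a count in 26 of 68 members, of which 1 was tested and fell. For 5 of the 26 every heterozygous library was above every knockout library, near the 20.3% of all features with a count.

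The p53 and apoptosis genes summed to 241, 268 and 270 CPM in heterozygous and 574, 315 and 529 CPM in knockout libraries. Of 16, 3 were tested and 0 changed with edgeR. Without knockout replicate 2, 5 were tested, 2 rose and 1 fell, against 31.1% and 30.0% of all features tested there. Trp53inp1, a p53-induced nuclear protein, had 4, 0 and 0 counts against 104, 0 and 56. Mdm2, the p53 ubiquitin ligase, had 59, 36 and 56 counts against 36, 0 and 51 (-0.46 ± 1.13, adjusted p = 0.775).

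Endothelial markers summed to 93.9, 71.4 and 109 CPM against 24.0, 145 and 83.0 CPM, and 1 of 6 was tested. That is Tek, an endothelial receptor kinase, with 49, 29 and 39 counts against 7, 0 and 8 (-2.58 ± 1.02, adjusted p = 0.0796, and 0.00470 without knockout replicate 2). Erythroid markers were at 0 apart from Alas2, with 8 counts in heterozygous replicate 3 and 8 in knockout replicate 1. Of the adipose markers 3 of 7 had a count and 1 was tested. Adipoq, a hormone of fat cells, had 118, 52 and 54 counts against 1, 0 and 0 and fell (-6.97 ± 1.05, adjusted p = 0.00570), while Fabp4, another fat cell marker, was at 0 in all 6 libraries.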
